A study of Mus musculus with 12 samples.

Results

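The transcripts described here encode 10 transcription factors that set and keep B-lineage identity, namely *Pax5*, *Ebf1*, *Foxo1*, *Bach2*, *Bcl6*, *Spib*, *Irf8*, *Bcl11a*, *Runx1* and *Erg*. They were chosen by name from a table of 41444 genes. No measured value entered the choice rule, but earlier results of these data were known. RNA sequencing (RNA-seq) was performed on *BCR*–*ABL1* transformed *Ctnnb1* fl/fl pre-B cells of mouse bone marrow, a model of B cell acute lymphoblastic leukemia (B-ALL) in which Cre can excise the β-catenin gene. Progenitors had been expanded with interleukin-7, transformed by a retrovirus carrying the oncogene and then grown without the cytokine. Of 12 samples in 4 groups, those compared here are 3 control samples and 3 samples that received LY2090314, a small-molecule inhibitor of the kinase GSK3β, at 40 nM. All 6 carried the ERT2 vector, which lacks Cre and leaves β-catenin intact, and all 6 were exposed to 1 µM 4-OHT, the active tamoxifen metabolite, for 2 days.

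GSK3β marks β-catenin for degradation, so its inhibition lets β-catenin protein accumulate. The labels give 1 day of LY2090314, whereas a legend in the study gives a shorter time in hours, and no vehicle is named for the controls. The legend describes the 3 replicates as mice, and the labels do not say whether the same mice gave both groups. Samples with Cre-ERT2 are not analysed here. The purpose of the comparison was to learn which transcripts change when GSK3β is inhibited in B-ALL cells that can accumulate β-catenin.

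B cell identity rests on a small network of transcription factors. Ebf1 opens B cell genes in early progenitors, Pax5 holds cells in the lineage by activating B cell genes and silencing those of other fates, and Foxo1 drives recombinase and receptor genes. Bach2 and Bcl6 repress *Prdm1*, which encodes Blimp-1, the factor that ends the B cell program and starts plasma cell differentiation. Spib and Erg belong to the Ets family, Irf8 to the interferon regulatory factors and Runx1 to the Runt family, and Bcl11a is a zinc finger repressor needed for early B cell development.

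With LY2090314, 7 of the 10 factors were lower and 3 were higher, whereas of all 11536 genes tested 25.3% were called lower and 24.8% higher, or 50.1% in all. *Bcl11a*, *Pax5* and *Spib* fell the most, to 25.8%, 34.4% and 37.2% of their control levels, whereas *Runx1* rose 2.06-fold. *Erg*, *Irf8*, *Ebf1* and *Bach2* fell by smaller amounts, between 1.45-fold and 1.31-fold, and *Foxo1* and *Bcl6* rose 1.21-fold and 1.38-fold. All values are deposited regularized log2 values (rlog), which correct for library size and pull genes with few reads towards their own mean. Folds are derived from differences of these values and understate changes of genes with few reads. Differences were tested with limma, adjusted over all 11536 genes with a mean rlog value of at least 3 in the 6 libraries, and called at an adjusted p under 0.05.

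**Figure D1:**
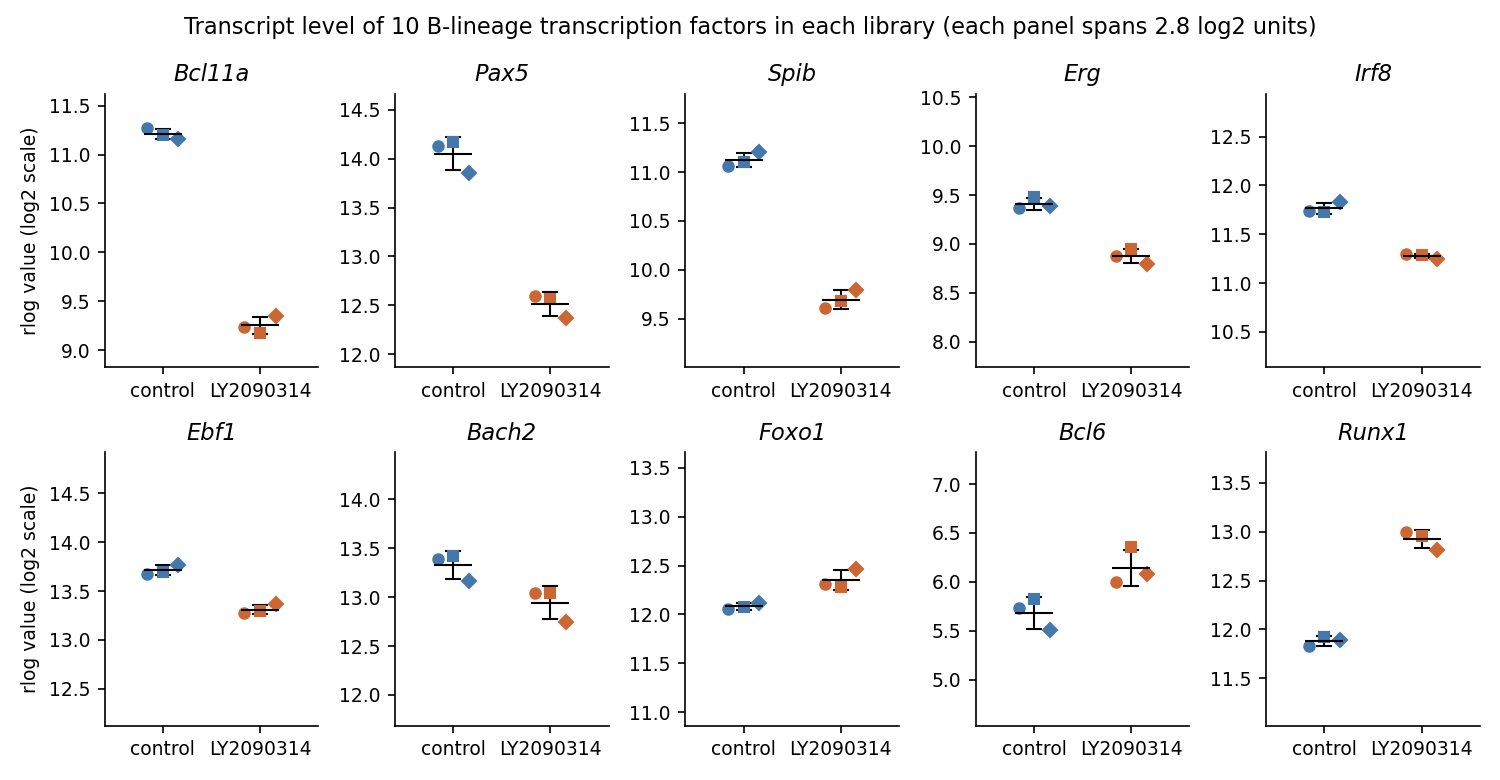
Rlog value (log2 scale, y axis) of each of the 10 factors in 3 control libraries (blue) and 3 LY2090314 libraries (orange), 1 panel per gene and each panel spanning the same height in log2 units. Points are libraries, with the same symbol for libraries 1, 2 and 3 of each group as a name only. Horizontal lines are means and bars are SD (n = 3). In each of the 10 panels the groups do not overlap, with the widest gap for *Bcl11a* and the narrowest for *Bach2*.

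Bases upstream of the RefSeq start sites are shown for the 4 factors whose difference reached 1 on the log2 scale, since these carry the largest changes. Each run is written 5′ to 3′ on the strand of the gene, from RefSeq on GRCm38.p6, and covers bases before the RefSeq start site. Bases that GENCODE annotates as exon were removed from the 3′ end, 25 for *Bcl11a* and 75 for the distal *Runx1* start, so these runs stop short of the start site, and the other runs reach it. *Runx1* has a distal and a proximal start, and each is given. Capitals mark the letters TGGGAA, which hold the Ikaros core motif GGGAA named in the study, or CCCNNGGG, a core recognised by Ebf1, on either strand. GGGAA without the leading T was not searched, so stretches without capitals can hold it.
Bcl11a: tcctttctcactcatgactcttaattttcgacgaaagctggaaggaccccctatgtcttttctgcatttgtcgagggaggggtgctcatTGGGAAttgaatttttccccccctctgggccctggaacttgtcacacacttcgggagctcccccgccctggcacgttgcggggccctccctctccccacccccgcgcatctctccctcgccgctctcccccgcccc
Pax5: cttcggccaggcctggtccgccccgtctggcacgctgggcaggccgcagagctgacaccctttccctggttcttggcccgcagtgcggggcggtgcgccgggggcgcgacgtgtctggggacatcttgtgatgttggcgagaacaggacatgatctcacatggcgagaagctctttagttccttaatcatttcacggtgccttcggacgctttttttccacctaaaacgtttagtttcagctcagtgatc
Spib: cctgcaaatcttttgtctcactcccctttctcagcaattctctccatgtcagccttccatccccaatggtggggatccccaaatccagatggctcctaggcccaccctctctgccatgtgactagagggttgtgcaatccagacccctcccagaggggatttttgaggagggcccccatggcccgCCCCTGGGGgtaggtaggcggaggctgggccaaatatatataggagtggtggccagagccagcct
Runx1 distal: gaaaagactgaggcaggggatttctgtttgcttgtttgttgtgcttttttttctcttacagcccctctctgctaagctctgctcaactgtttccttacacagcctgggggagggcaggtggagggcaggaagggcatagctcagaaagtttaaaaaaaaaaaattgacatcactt
Runx1 proximal: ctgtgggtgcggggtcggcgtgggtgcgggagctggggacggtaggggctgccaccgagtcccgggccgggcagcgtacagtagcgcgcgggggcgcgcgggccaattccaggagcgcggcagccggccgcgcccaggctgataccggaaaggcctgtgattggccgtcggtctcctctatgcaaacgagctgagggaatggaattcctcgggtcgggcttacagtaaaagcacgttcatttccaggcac
The Bcl11a run is chr11:24080445-24080669 on the plus strand, and its TGGGAA begins 161 bases before the RefSeq start site, counted over the 25 bases not shown. This start lies inside the gene as GENCODE annotates it. The Pax5 run is chr4:44710695-44710944 on the minus strand and holds none of the letters searched. The Spib run is chr7:44532072-44532321 on the minus strand, where 2 matches of CCCNNGGG overlap, at 65 and 64 bases before the start. The Runx1 runs are chr16:92826150-92826324 for the distal start and chr16:92697330-92697579 for the proximal start, both on the minus strand, and neither holds a searched motif. Their GC contents differed, at 45.1% for the distal and 67.6% for the proximal run.

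Over windows of 250 bases before the start, all 10 factors matched the RefSeq promoter table, with 16 windows. TGGGAA was present in 4 of these 16, those of *Bcl11a*, *Ebf1*, *Erg* and *Irf8*, and in 21.6% of 32851 windows of all genes. CCCNNGGG was present in 3 of 16, those of *Erg*, *Foxo1* and *Spib*, and in 11.8% of all windows. CTTTGAT and CTTTGAA, the letters bound by TCF/LEF factors, the DNA-binding partners of β-catenin, were present in 0 of 16 windows and in 3.21% and 4.46% of all windows. Both strands were searched. A match describes letters only and is not a measured binding site.

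*Bcl11a* (ENSMUSG00000000861, GRCm38 chromosome 11, 24078056 to 24174123, plus strand) had rlog values of 11.27, 11.20 and 11.16 in the control libraries and 9.24, 9.18 and 9.35 with LY2090314. The lowest control library stood 1.81 log2 units above the highest treated library. *Bcl11a* fell by 1.96 log2 units (standard error 0.060, 95% interval -2.10 to -1.82, limma adjusted p = 2.5e-07), a 3.88-fold decrease and rank 27 of 11536 genes from the largest fall. In bulk RNA, fewer cells that express a gene and less RNA per cell cannot be told apart, here and for each decrease that follows.

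*Pax5* (ENSMUSG00000014030, chromosome 4, 44524757 to 44710487, minus strand), the guardian of B cell commitment, had values of 14.13, 14.17 and 13.86 in the control libraries and 12.59, 12.57 and 12.37 with LY2090314. Library 3 was the lowest of its group in both groups, and the groups stood 1.26 apart. *Pax5* fell by 1.54 (standard error 0.098, 95% interval -1.77 to -1.31, limma adjusted p = 9.8e-06), or 2.91-fold. *5730488B01Rik*, an unclassified gene on the opposite strand, shares 636 exon bases with *Pax5*. Its rlog value was 11.28 ± 0.060 (SD, n = 3) in control cells and 8.77 ± 0.039 (SD, n = 3) with LY2090314, a difference of -2.51 (standard error 0.053, limma adjusted p = 3.4e-08). The library kit keeps strand, but the strand setting of the counting is not given in the sources used here, and the part of this gene's reads in the *Pax5* value was not tested.

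*Spib* (ENSMUSG00000008193, chromosome 7, 44525993 to 44532071, minus strand) encodes the Ets factor Spi-B, a close relative of PU.1 found in B cells and plasmacytoid dendritic cells. Its values were 11.06, 11.10 and 11.20 in the control libraries and 9.61, 9.68 and 9.79 with LY2090314. All treated libraries were lower than all control libraries, by a gap of 1.26. *Spib* fell by 1.43 (standard error 0.065, 95% interval -1.58 to -1.27, limma adjusted p = 1.8e-06), or 2.69-fold.

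*Runx1* (ENSMUSG00000022952, chromosome 16, 92601466 to 92826149, minus strand), which binds DNA with its partner Cbfb and acts upstream of *Ebf1* in progenitors, changed in the opposite direction. Its values were 11.83, 11.93 and 11.89 in the control libraries and 13.00, 12.96 and 12.82 with LY2090314, so that every treated library was higher than every control library. *Runx1* rose by 1.04 (standard error 0.061, 95% interval 0.90 to 1.18, limma adjusted p = 6e-06), at rank 454 from the largest rise.

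The Ets factor *Erg* (ENSMUSG00000040732, chromosome 16, 95359169 to 95586593, minus strand), which acts with *Ebf1* and *Pax5* in early B cells, had values of 9.37, 9.48 and 9.39 in the control libraries and 8.88, 8.95 and 8.80 with LY2090314. The groups did not overlap, and *Erg* fell by 0.54 (standard error 0.065, 95% interval -0.69 to -0.39, limma adjusted p = 0.00031). *Irf8* (ENSMUSG00000041515, chromosome 8, 120736358 to 120756694, plus strand), which acts with *Irf4* in the pre-B to B cell transition, varied least within the treated group. It had values of 11.74, 11.73 and 11.83 without and 11.29, 11.29 and 11.25 with LY2090314. *Irf8* fell by 0.49 (standard error 0.047, 95% interval -0.60 to -0.38, limma adjusted p = 9.3e-05).

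*Ebf1* (ENSMUSG00000057098, chromosome 11, 44617317 to 45008091, plus strand) changed less than *Pax5*, although the encoded factors share many target genes. Its values were 13.68, 13.69 and 13.77 in the control libraries and 13.27, 13.29 and 13.37 with LY2090314, with library 3 the highest in each group. *Ebf1* fell by 0.40 (standard error 0.055, 95% interval -0.53 to -0.27, limma adjusted p = 0.00062), and its interval does not meet that of *Pax5*. *Foxo1* (ENSMUSG00000044167, chromosome 3, 52268336 to 52353221, plus strand), a factor held out of the nucleus by AKT, had values of 12.05, 12.08 and 12.12 without and 12.31, 12.28 and 12.47 with LY2090314. Every treated library was higher, and *Foxo1* rose by 0.27 (standard error 0.060, 95% interval 0.13 to 0.41, limma adjusted p = 0.0072).

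*Bach2* and *Bcl6*, the pair that represses *Prdm1*, moved in opposite directions by similar amounts on the log2 scale only. Their levels were far apart, with mean rlog values of 13.33 for *Bach2* and 5.68 for *Bcl6* in control cells. *Bach2* (ENSMUSG00000040270, chromosome 4, 32238804 to 32586108, plus strand) had values of 13.39, 13.42 and 13.16 in the control libraries and 13.04, 13.04 and 12.75 with LY2090314. Only 0.12 separated the lowest control from the highest treated library. *Bach2* fell by 0.38 (standard error 0.10, 95% interval -0.62 to -0.15, limma adjusted p = 0.015). The call was lost without control library 1 (limma adjusted p = 0.052), without control library 2 (0.059) and with no lower limit on the mean (0.054).

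*Bcl6* (ENSMUSG00000022508, chromosome 16, 23965052 to 23988852, minus strand), best known from germinal center B cells and also induced by pre-B cell receptor signaling, was the lowest of the 10 factors. It had values of 5.73, 5.82 and 5.50 in the control libraries and 5.998, 6.35 and 6.08 with LY2090314, and the groups stood 0.18 apart. *Bcl6* rose by 0.46 (standard error 0.13, 95% interval 0.16 to 0.76, limma adjusted p = 0.019). This call was lost without control library 3 (limma adjusted p = 0.061), without treated library 2 (0.060) and with no lower limit on the mean (0.052).

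**Figure D2:**
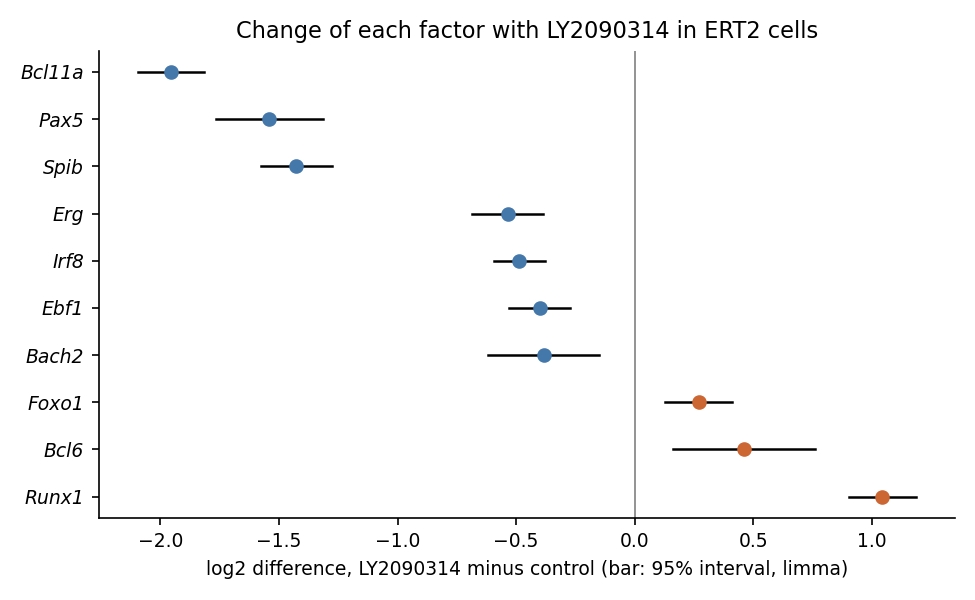
Difference in rlog value (log2 scale, LY2090314 minus control, x axis) of the 10 factors (y axis), with points for the estimate from limma and bars for its 95% interval. Blue marks factors that were lower and orange those that were higher with LY2090314. None of the 10 intervals reaches 0. *Bcl11a*, *Pax5* and *Spib* lie beyond -1 and *Runx1* beyond 1.

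All 10 factors passed the limit on low values, and all 10 were called, against 50.1% of all genes. Groups did not overlap for all 10 factors and for 58.6% of all genes. A call together with a difference of at least 1 on the log2 scale was made for 4 of the 10 factors and for 6.01% of all genes. The median difference was -0.44 for the factors and 0.01 for all genes, and the median size of the difference was 0.51 and 0.24. By exact permutation of the libraries (two-sided), p was 0.10 for each of the 10 factors, the smallest value that 3 against 3 libraries allow.

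The order of the factors changed with LY2090314. Levels were compared between genes as rlog value minus log2 of the exon length in kb. Exon length is that of all annotated exons of a gene merged, not of the transcript in use, and the order depends on this choice. In control cells *Pax5* was the highest at 10.90, followed by *Ebf1* at 10.43, *Bach2* at 10.01 and *Spib* at 9.60, none of which overlapped with its neighbour over the 3 libraries. *Foxo1* at 8.97 and *Irf8* at 8.95 overlapped and were not separated. *Runx1* at 8.29, *Erg* at 7.62, *Bcl11a* at 7.49 and *Bcl6* at 2.94 followed without overlap.

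With LY2090314, *Ebf1* was the highest at 10.03. *Bach2* at 9.63, *Pax5* at 9.36, *Runx1* at 9.34 and *Foxo1* at 9.24 came next, and each of these overlapped with its neighbour. Below them stood *Irf8* at 8.46, *Spib* at 8.17, *Erg* at 7.08, *Bcl11a* at 5.53 and *Bcl6* at 3.40. Among 11503 tested genes with an exon length, *Bcl11a* moved from the percentile 62.7 to 30.6 of level per kb, *Pax5* from 96.3 to 88.5, *Spib* from 90.1 to 73.9 and *Runx1* from 75.6 to 88.3.

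**Figure D3:**
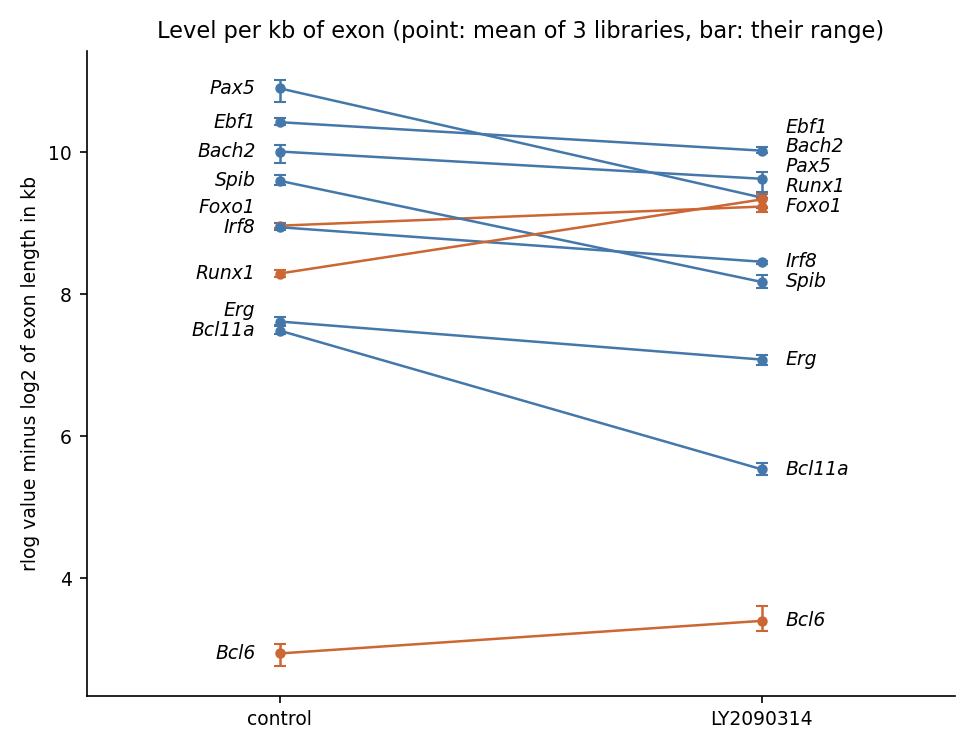
Level per kb of exon (rlog value minus log2 of exon length in kb, y axis) of the 10 factors in control and LY2090314 cells (x axis), with points for the mean of 3 libraries and bars for their range. Lines join the same factor, blue where it was lower and orange where it was higher with LY2090314. *Pax5* starts highest at 10.90 and meets *Runx1* and *Foxo1* between 9.24 and 9.36, whereas *Bcl6* stays lowest.

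Other transcription factors of B cell development were split evenly. Of 30 listed, 28 were tested, of which 10 rose, 10 fell and 8 were not called, with a median difference of -0.10. The largest rises were *Tcf12*, an E protein, by 1.59, *Id2*, an inhibitor of E proteins, by 1.51, and *Irf4*, by 1.41. The largest falls were *Pou2f2*, which encodes the octamer factor Oct-2, with -2.77, *Id3*, another inhibitor of E proteins, with -1.50, and *Zeb2* with -1.07. Of the Ikaros factors, *Ikzf1* fell by 0.23 (limma adjusted p = 0.0062) and *Ikzf3* rose by 1.06 (limma adjusted p = 1.2e-05).

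Family relatives of the 10 factors were mostly below the limit on low values, which 16 of 33 passed. Of these 16, 9 rose, 3 fell and 4 were not called (median 0.15). *Ets2* rose by 1.96 and *Irf1* by 1.43, whereas *Irf2*, *Pax7* and *Irf5* fell by 0.43, 0.30 and 0.30. *Irf4*, a relative of *Irf8*, had 12.75 ± 0.047 (SD, n = 3) in control and 14.16 ± 0.052 (SD, n = 3) in treated cells, opposite in direction to *Irf8*. *Spi1*, which encodes PU.1, the relative of Spi-B, had 9.68 ± 0.19 (SD, n = 3) without and 9.74 ± 0.040 (SD, n = 3) with LY2090314 and was not called (limma adjusted p = 0.63), and *Fli1*, the closest relative of *Erg*, was not called either (difference -0.04, limma adjusted p = 0.74).

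Textbook target genes of the factors were then described by counts. Of 18 tested genes that Pax5 or Ebf1 activate, 10 fell, 4 rose and 4 were not called, with a median of -0.32. The surrogate light chain genes *Igll1*, *Vpreb1* and *Vpreb2* fell by 1.42, 1.27 and 1.17, whereas *Fcrla* rose by 1.67, *Lef1* by 0.80 and *Bst1* by 0.38. Of 9 tested genes that Pax5 represses, 8 rose, none fell and 1, *Notch1*, was not called (difference 0.25, limma adjusted p = 0.083). Their median was 1.50. *Prdm1*, also a target of Bach2 and Bcl6, showed the greatest change in the lists, from 6.07 ± 0.068 (SD, n = 3) to 10.53 ± 0.028 (SD, n = 3), a rise of 4.46 (standard error 0.069, limma adjusted p = 1.6e-08). The T cell costimulatory receptor *Cd28* rose by 3.20 and the chemokine receptor *Ccr2* by 2.88.

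Of 11 genes that Foxo1 activates in lymphocytes, 6 rose, 4 fell and 1 was not called, with a median of 0.25. The recombinase genes *Rag1* and *Rag2* fell by 1.93 and 1.81 and the adaptor *Blnk* by 0.44, whereas the homing receptor *Ccr7* rose by 1.53 and the cell death gene *Bcl2l11* by 0.72. Of 11 tested genes repressed by Bach2 or Bcl6, 9 rose and 2 fell, with a median of 0.92. Beside *Prdm1*, the survival gene *Bcl2* rose by 2.22 and the activation marker *Cd69* by 1.74, while *Atr* and *Trp53* fell by 0.62 and 0.19. Some genes are in more than 1 list, *Prdm1* and *Blnk* among them, so the counts are not independent. Binding of the factors to these genes was not measured here.

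**Figure D4:**
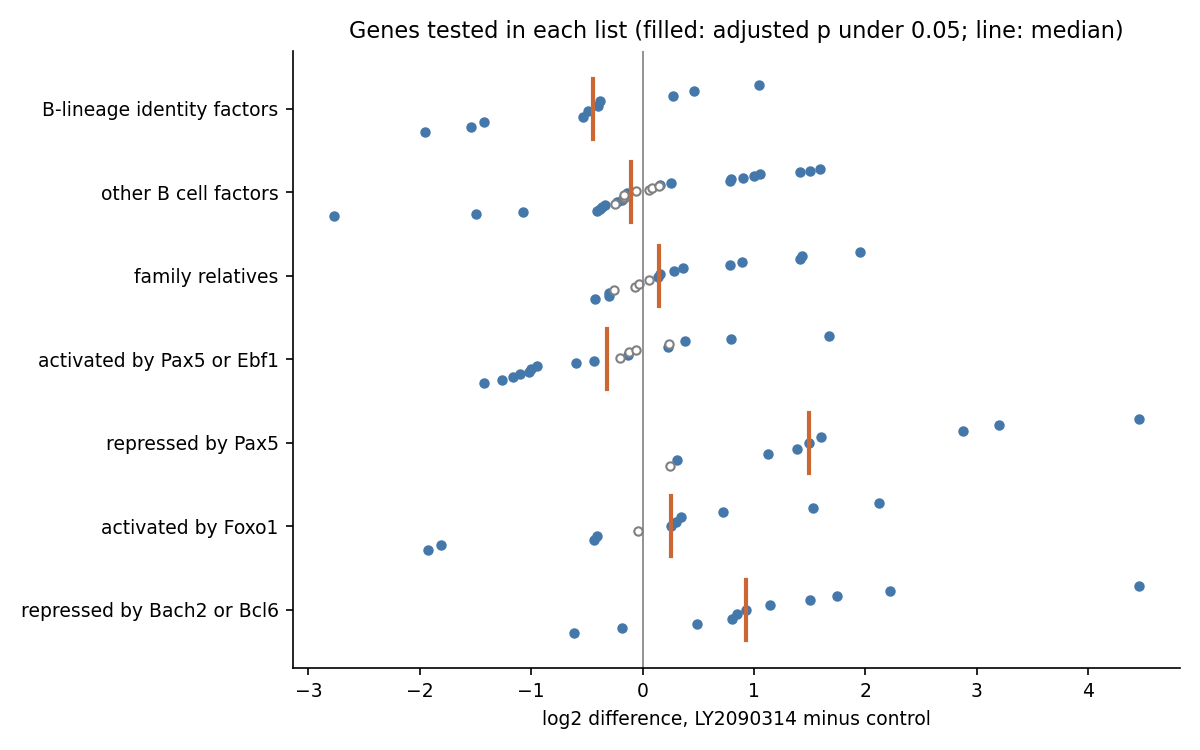
Difference in rlog value (log2 scale, LY2090314 minus control, x axis) of the tested genes of 7 lists (y axis), with 1 point per gene, filled where the limma adjusted p is under 0.05, and a vertical line at the median of each list. Vertical spread within a list only separates the points. Medians are -0.44 for the 10 factors, 1.50 for genes repressed by Pax5 and 0.92 for those repressed by Bach2 or Bcl6.

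The pre-B label was compared with its markers. All 12 pre-B markers were above the limit, and *Cd79a*, a signaling chain of the B cell receptor, was high in control cells (14.04 ± 0.024, SD, n = 3). With LY2090314, 7 of the 12 fell and 3 rose, with a median of -0.54. Levels were also summed on a linear scale (2 to the power of the rlog value, leaving out genes listed at 0 in all 6 libraries). The sum of the 12 pre-B markers was 88745.4 to 91304.0 in control and 81215.5 to 89361.5 in treated libraries, and these ranges overlapped. *Cd24a* (mean rlog value 14.92 in control and 14.85 in treated cells) and *Cd79a* (14.04 and 14.28) weigh most in this sum. Neither was called, so the sum says little about the 7 markers that fell. That of 6 plasma cell markers ranged from 9462.2 to 9678.4 in control and from 25470.5 to 26659.8 in treated libraries. *Irf4* (mean rlog value 12.75 in control and 14.16 in treated cells) and *Xbp1* (11.19 and 12.57) make up most of the plasma cell sum. Of the 6 plasma cell markers, *Prdm1*, *Irf4*, *Xbp1* and *Jchain* rose, *Sdc1* fell by 1.09 and *Tnfrsf17* was under the limit. Of 10 myeloid markers, 3 were tested and all 3 rose, with sums from 90.6 to 104.9 and from 227.3 to 252.7. They were *Ly6g* (mean rlog value 3.48 in control and 6.45 in treated cells), *Fcgr3* (4.78 and 6.12) and *Lyz2* (5.80 and 6.34), all at low levels. The other 7 were under the limit in the mean of the 6 libraries, and of these *Mpo* and *Elane* were at 0 in all 6 libraries. Of 9 T cell markers, 2 were tested, of which *Lck* rose by 0.95 and *Thy1* fell by 0.28 (sums 2647.3 to 2855.8 and 4935.8 to 5846.4). *Lck* (mean rlog value 11.41 in control and 12.36 in treated cells) makes up most of these sums, whereas *Thy1* was at 3.94 and 3.66. Of 7 erythroid markers only *Hbb-bt* was tested, and it fell by 0.44 (sums 21.0 to 21.7 and 17.2 to 17.6), while none of 5 NK cell markers (sums 6.6 to 7.1 and 6.0 to 6.9) and none of 6 stromal markers (0.7 in each library) passed the limit. Of these, 2 NK cell and 4 stromal markers were listed at 0 in all 6 libraries. The part of any other cell type in the changes of the 10 factors was not tested.

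Libraries separated by group. The SD of the difference between 2 libraries over the tested genes was 0.185 to 0.253 within groups and 0.581 to 0.622 between groups. Treated libraries 1 and 2 share a library number in their column names and differed by 0.186, close to the lowest value within the controls. Counting them as 1 sample left all 10 factors called. *Myc* fell by 2.64 (limma adjusted p = 1.9e-08) and *Ctnnb1*, which encodes β-catenin, by 0.35 (limma adjusted p = 0.0003). Since only log2 values were used, sequencing depth is unknown and no counting error can be given.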

How the data were processed

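RNA-seq of polyadenylated RNA was made by the authors with a stranded kit and paired-end reads on 12 samples. The authors deposited log2 values (rlog) for 41444 genes on GRCm38. The submitters' processing notes name FastQC 0.11.9, SAMtools 1.7, Picard 2.23.8, Salmon and DESeq2 1.30.1. Which samples entered the transformation is not given in the sources used here.

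Columns were assigned to groups by name. Of 12 columns 6 were used, and the other 6, whose names combine Cre and LY, were not used in any step. Library numbers 1 to 3 are names only and were not used to pair libraries, since any pairing is not given. Differences were tested in R 4.3.3 using limma 3.58.1 (a linear model per gene, then eBayes with its mean-variance trend) on genes with a mean of at least 3, with Benjamini-Hochberg adjustment over 11536 genes and a two-sided threshold of 0.05. The calculation was tested on simulated data. No count test was possible, and p-values measure the spread between 3 libraries per group. Single genes were also compared by exact permutation (SciPy 1.17.1). Exon lengths and positions came from GENCODE on GRCm38, and 41157 identifiers had a symbol. Promoter windows came from RefSeq (GRCm38.p6).

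The 10 factors and the gene lists were chosen with earlier results of these data known, so counts and medians carry no list test. All 10 factors are named, with up to 3 rises and 3 falls from each other list of B cell factors, relatives and targets, and *Prdm1*, *Ikzf1*, *Ikzf3*, *Spi1*, *Irf4*, *Myc* and *Ctnnb1*. Some genes under this rule are not reported here. *Fli1*, *Notch1*, *Cd79a*, *Cd24a*, *Mpo*, *Elane* and *Tnfrsf17* were named after their values were seen. Alternatives were no trend, other limits on the mean, median centring, quantile normalization, leaving out each library, merging libraries with a shared number, a threshold of 0.01 and a minimum size of 1.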

Additional observations from a re-analysis of the deposited data

How the results depend on the processing

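Of 140 values of the 10 factors under alternatives, 126 kept direction and call, 14 kept direction and lost the call, and 0 reversed. Of the 14, 6 come from requiring a log2 difference of at least 1, which left 693 genes and 4 factors (*Bcl11a*, *Pax5*, *Spib* and *Runx1*). The other 8 are of *Bach2* and *Bcl6*, lost with no lower limit on the mean, at a threshold of 0.01 and without single libraries. Leaving out each library in turn gave 4734 to 6228 genes and 9 to 10 factors. A threshold of 0.01 gave 4021 genes and 8 factors, and merging treated libraries 1 and 2 gave 4936 genes and 10 factors. Over the alternatives without a size limit, *Bcl11a* stayed between -2.00 and -1.92, *Pax5* between -1.64 and -1.47, *Spib* between -1.48 and -1.38 and *Runx1* between 1.01 and 1.10. Median centring moved each difference by -0.03, and quantile normalization moved the differences by -0.04 in the median over all genes. Of 130 list counts, 7 moved by over 1.5 times, 6 for T cell markers (2 to 1) and 1 for erythroid markers (1 to 0). No paired analysis was possible because replicate numbers of the titles cannot be found in the names of the columns. Depth limits cannot be given without counts, and rlog shrinkage is strongest for genes with few reads, and *Bcl6* had the lowest level of the factors.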

Other observations

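Library 3 of each group stood apart from libraries 1 and 2 for several factors, by amounts small beside the changes of *Bcl11a*, *Pax5*, *Spib* and *Runx1*. *Pax5* deviated from its group mean by -0.19 in control library 3 and by -0.14 in treated library 3, and *Bach2* by -0.16 and -0.20. *Ebf1* deviated by 0.06 in each, *Foxo1* by 0.04 and 0.12, and *Spib* by 0.08 and 0.10, so that these were the highest of their groups where *Pax5* and *Bach2* were the lowest. *Bcl6* deviated by -0.18 and -0.07, with library 3 the lowest among the controls and treated library 1 the lowest among the treated, and *Bcl11a* by -0.05 and 0.09, in opposite directions. Whether a control and a treated library of the same number are linked is not given and was not tested.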
